A study of Homo sapiens with 32 samples.

Results

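The genes described here are 33 transcriptional targets of p53, taken by name from a table of 35238 genes measured in 32 RNA sequencing libraries. All 33 had a row in the table, and all 33 were among the 17011 genes with more than 1 count per 1e+06 reads (CPM) in at least 2 libraries, which were the genes tested. SPATA18 met that filter only through Ishikawa-S33Y libraries given SM08502, alone or in the combination, so its change there was favoured by the filter. The libraries came from 4 human endometrial cancer cell lines, each in 4 groups of 2 libraries: 0.1% DMSO (vehicle), paclitaxel, SM08502, or both drugs, for 24 h. Paclitaxel, a taxane, stabilises microtubules; SM08502 is an inhibitor of the CDC-like kinases that phosphorylate splicing factors. Ishikawa is labelled CTNNB1-wildtype, and Ishikawa-S33Y, SNGM and HEC265 are labelled CTNNB1-mutated, CTNNB1 being the gene of beta-catenin. Doses were the half-maximal inhibitory concentrations of the line: 11 nM paclitaxel and 80 nM SM08502 in Ishikawa, and 6 nM and 85 nM in Ishikawa-S33Y. In SNGM the concentrations were 11.7 nM paclitaxel and 350.7 nM SM08502, and in HEC265 they were 5.6 nM and 149 nM. Dose therefore cannot be told apart from the line, nor can the RNA input, 350 ng in Ishikawa and 500 ng in the other lines. Whether Ishikawa-S33Y is a single clone is not given in the sources used here. Cells were plated in duplicate, and p-values measure only the spread between such duplicates.

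p53 is a transcription factor that is kept low by the ubiquitin ligase MDM2 and accumulates after DNA damage and other stress. It binds response elements made of paired half-sites and raises genes that stop the cell cycle, repair DNA, adjust metabolism, cause cell death, or restrain p53 itself, MDM2 being the best known of the last kind. In the endometrium, CTNNB1 mutation is typical of endometrioid tumours.

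The 250 bases before each start site in RefSeq (GRCh38.p14) were searched on both strands for the p53 half-site consensus, a 10-base motif. A single half-site is not the paired element described above. The table holds 39 promoters of 26 of these genes, and 6 of the 39 (15.4%), each of a different gene, held a half-site, against 1957 of all 35116 promoters (5.57%). None of the 39 held a pair of half-sites separated by 0 to 13 bases, which 9 of all promoters (0.0256%) did. Every half-site had to match the consensus exactly, so a pair in which either member had a mismatch was not counted. The 5 windows below, with the half-site in capitals, belong to genes that changed with treatment; the remaining one was that of RPS27L, which was not called in any single line.
FDXR (chr17:74872995-74873025, minus strand): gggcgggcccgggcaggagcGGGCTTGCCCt
SESN1 (chr6:109009008-109009057, minus strand): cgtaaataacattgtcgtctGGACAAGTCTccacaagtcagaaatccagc
AEN (chr15:88621286-88621335, plus strand): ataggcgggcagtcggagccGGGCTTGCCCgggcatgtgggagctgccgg
FAS (chr10:88991289-88991338, plus strand): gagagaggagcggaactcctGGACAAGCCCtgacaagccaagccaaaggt
PLK2 (chr5:58460189-58460238, minus strand): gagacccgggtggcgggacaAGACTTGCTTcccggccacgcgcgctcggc
The half-sites began 11 (FDXR), 49 (SESN1), 34 (AEN), 122 (FAS) and 132 (PLK2) bases before a start site. These 5 genes did not move together: FDXR and SESN1 rose in most lines, AEN and FAS in some, and PLK2 fell in Ishikawa. The elements best known for CDKN1A and MDM2 lie further upstream or in an intron, outside the window searched.

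Library depth was 13.03 to 34.1 M reads (M, 1e+06) in 30 libraries, and 2.99 M and 1.61 M in the second combination replicates of Ishikawa-S33Y and SNGM. Of 7 epithelial markers (EPCAM, KRT8, KRT18, KRT19, CDH1, PAX8 and SOX17), all were at 49.0 CPM or more in every library except SOX17, which stood at 0 to 0.0371 CPM in SNGM. Summed CPM of 10 markers of fibroblasts, leukocytes and endothelium was 17.2 to 57.3 in HEC265, 25.1 to 43.6 in SNGM, 54.4 to 215 in Ishikawa, and highest in Ishikawa-S33Y (722 to 1177, of which COL1A1 alone was 707 to 1158), while PDGFRB, CD3E and CDH5 were below 1 CPM in every library; the part of these markers in the results was not tested. Duplicate libraries of Ishikawa given paclitaxel or SM08502 differed more (root mean square log2 difference 0.569 and 0.459) than those of HEC265 (0.0955 to 0.138). The combination pairs with a shallow library differed by 0.493 in SNGM and 0.298 in Ishikawa-S33Y. In the RefSeq annotation (GRCh38.p14), from which gene positions are given below, 18 of the 33 overlap another gene, among them CDKN1A (DINOL), MDM2 (CPM), FAS (ACTA2 and FAS-AS1), PLK3 (DYNLT4) and SESN1 (ARMC2). Whether counting used strand is not given in the sources used here, so reads of such pairs may not be separated.

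Before any drug was added the p53 targets differed between the lines, as most tested genes did. Most targets were at their highest in SNGM or HEC265. On vehicle 25 of 33 were called higher in SNGM than in Ishikawa and 5 lower, beside 28% of all tested genes called higher. Here and below, called means a Benjamini-Hochberg adjusted p under 0.05 over all 17011 genes in a limma fit to log2(CPM + 1). HEC265 had 21 called higher and 7 lower than Ishikawa (all genes higher, 24.9%), and Ishikawa-S33Y had 4 higher and 15 lower than Ishikawa (all genes lower, 28.2%). SNGM against Ishikawa-S33Y gave 28 higher and 3 lower (all genes higher, 28.1%), HEC265 against Ishikawa-S33Y 25 and 4 (26.6%), and HEC265 against SNGM 5 and 18 (all genes lower, 28.9%). For each pair of lines the share of all genes is given in 1 direction only. The smaller count of each pair therefore has no such share beside it and is not read as few or many. Since 86.9% of all tested genes differed between the lines on vehicle by the F test, that all 33 targets did is no result about them.

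CDKN1A, which encodes the cyclin-dependent kinase inhibitor p21, spanned the widest range. Its vehicle level was 659 ± 73.1 CPM in SNGM (SD, n = 2), 417 ± 18.1 in HEC265, 73.2 ± 1.72 in Ishikawa and 15.9 ± 1.75 in Ishikawa-S33Y, each neighbouring pair in that order being called different. The secreted factor GDF15 stood at 226 ± 11.03 CPM in SNGM, 46.6 ± 0.433 in HEC265, 10.2 ± 0.116 in Ishikawa and 7.17 ± 1.01 in Ishikawa-S33Y, again with every neighbour called different. EDA2R, a receptor of the tumour necrosis factor family, was near 1 CPM in both Ishikawa lines and 24.8 ± 1.399 CPM in SNGM and 24.9 ± 0.955 in HEC265, and within each of these 2 pairs of lines it was not called different. TP53INP1, a stress-induced nuclear protein, ran the other way, with 23.6 ± 1.49 CPM in HEC265, 50.5 ± 5.42 in SNGM, 73.9 ± 2.51 in Ishikawa-S33Y and 97.4 ± 2.17 in Ishikawa, each step called. PPM1D, the phosphatase WIP1 that dampens p53 signalling, was also highest in Ishikawa, at 81.6 ± 1.57 CPM against 47 ± 2.53 in HEC265, 43.9 ± 4.52 in SNGM and 38.9 ± 1.998 in Ishikawa-S33Y; SNGM was not called different from either of the lines beside it in that order.

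**Figure D1:**
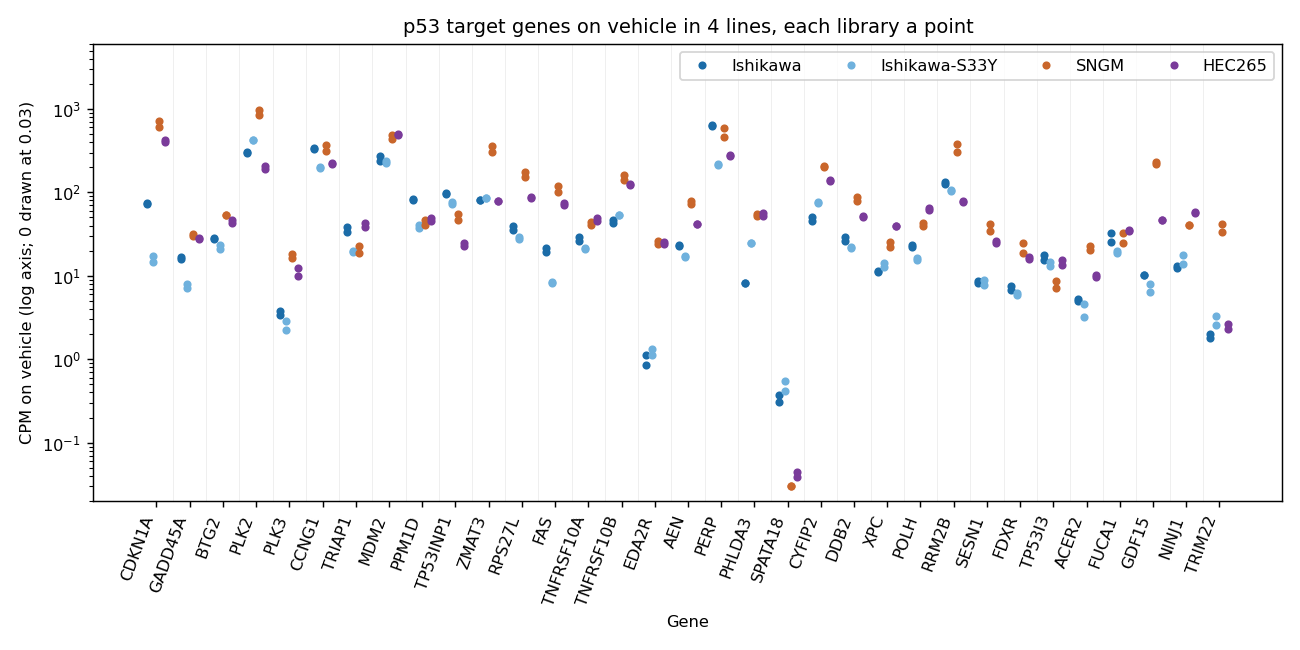
CPM of the 33 p53 target genes on vehicle (log axis, 2 libraries per line, a value of 0 drawn at 0.03), by line. Levels are to be compared between lines within a gene, not between genes, since CPM is not per length. CDKN1A, FAS, GDF15 and EDA2R lie higher in SNGM and HEC265 than in both Ishikawa lines, and TP53INP1 lies lower.

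Each drug was then compared with vehicle in each line. SM08502 raised p53 targets in 3 of the 4 lines. It raised 15 of 33 in HEC265 (all tested genes called higher, 9.27%), 10 in Ishikawa-S33Y (18.5%; SPATA18 is one of the 10) and 9 in SNGM (3.8%), and lowered none there (all genes called lower, 5.39%, 10.6% and 4.06%). In Ishikawa 1 rose and 1 fell (6.5% and 8.68% of all genes), so the share of targets called was below that of the whole table. The Ishikawa total of 2 was 6 without SM08502 replicate 1, 1 without any other single library compared, 5 with median re-centring and 0 in a fit to the line alone. Over all tested genes, fits to the line alone called 17 higher and 31 lower in Ishikawa and 63 and 62 in SNGM. In HEC265 such a fit called 4464 genes higher and 2562 lower. The counts of targets given below for alternative fits are of targets called in either direction. The median log2 change of the 33 was 0.45 in HEC265, 0.20 in SNGM, 0.20 in Ishikawa-S33Y and 0.01 in Ishikawa, where the median of all tested genes was 0.07, 0.00, 0.11 and 0.00. The count in SNGM rested on the spread shared by all groups: it fell from 9 to 1 in a fit to SNGM alone, and to 4 without its second vehicle or its first SM08502 replicate. In HEC265 it fell from 15 to 9 without the second SM08502 replicate and rose to 28 in a fit to HEC265 alone.

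With the combination 18 targets rose in HEC265 (12.4% of all genes called higher), 16 in SNGM (10.8%), 12 in Ishikawa-S33Y (24%) and 2 in Ishikawa (11.6%). None fell in HEC265 or SNGM (7.16% and 7.54% of all genes called lower), 1 fell in Ishikawa-S33Y (18%) and 3 in Ishikawa (11.2%). The medians were 0.44, 0.38, 0.26 and 0.05 in that order of lines, beside 0.09, 0.00, 0.06 and 0.03 for all genes. The counts of targets in alternative fits are again of those called in either direction. Without 1 library the count in HEC265 was 9 or 10 (vehicle replicate 1 or 2) and 9 or 11 (combination replicate 1 or 2), that in SNGM was 7 without vehicle replicate 2 and 9 without combination replicate 2, the shallow one, and a fit to the line alone gave 31 in HEC265 and 4 in SNGM. In Ishikawa the total of 5 was 2 without vehicle replicate 2, 3 without either combination replicate and 1 in a fit to the line alone. Of all tested genes, fits to the line alone called 176 higher and 186 lower in Ishikawa and 339 and 232 in SNGM. In HEC265 such a fit called 5178 genes higher and 2856 lower. The SM08502 and combination comparisons share their vehicle libraries, so the values of both are set side by side below and their agreement is not counted. Compared directly, the combination and SM08502 gave no target a called difference in any line by limma (all genes called, 0%, 0.129%, 0.253% and 0.00588%, the lines being Ishikawa, Ishikawa-S33Y, SNGM, HEC265), with 2, 5, 3 and 0 of the 33 at an unadjusted p under 0.05 in that order, beside 1.81%, 12.3%, 15.9% and 1.39% of all tested genes.

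**Figure D2:**
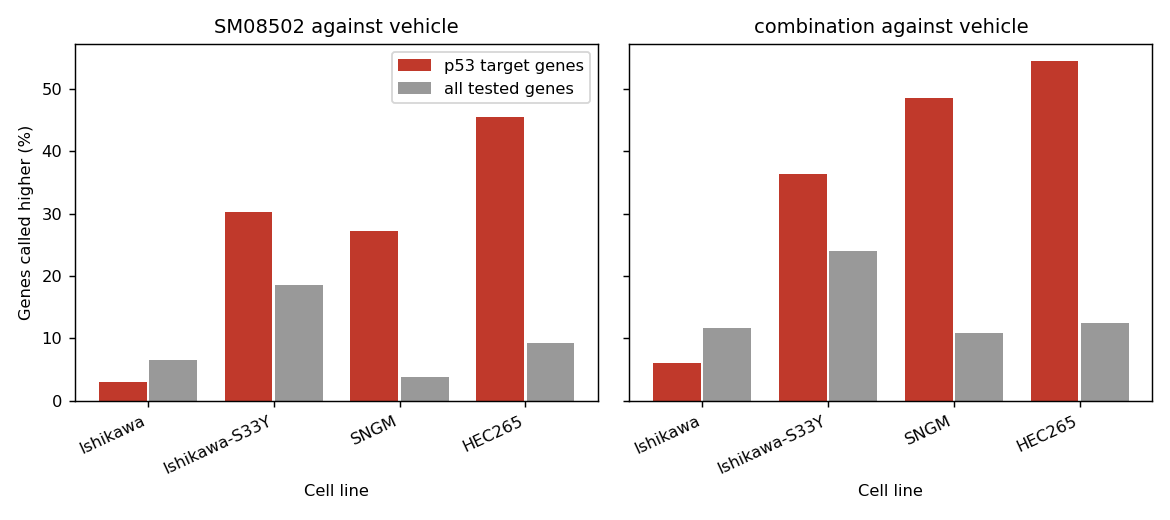
Share of the 33 p53 target genes and of all 17011 tested genes called higher than vehicle (bars, %), with SM08502 and with the combination in each line. The targets' bar is above that of all genes in Ishikawa-S33Y, SNGM and HEC265 and below it in Ishikawa.

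**Figure D3:**
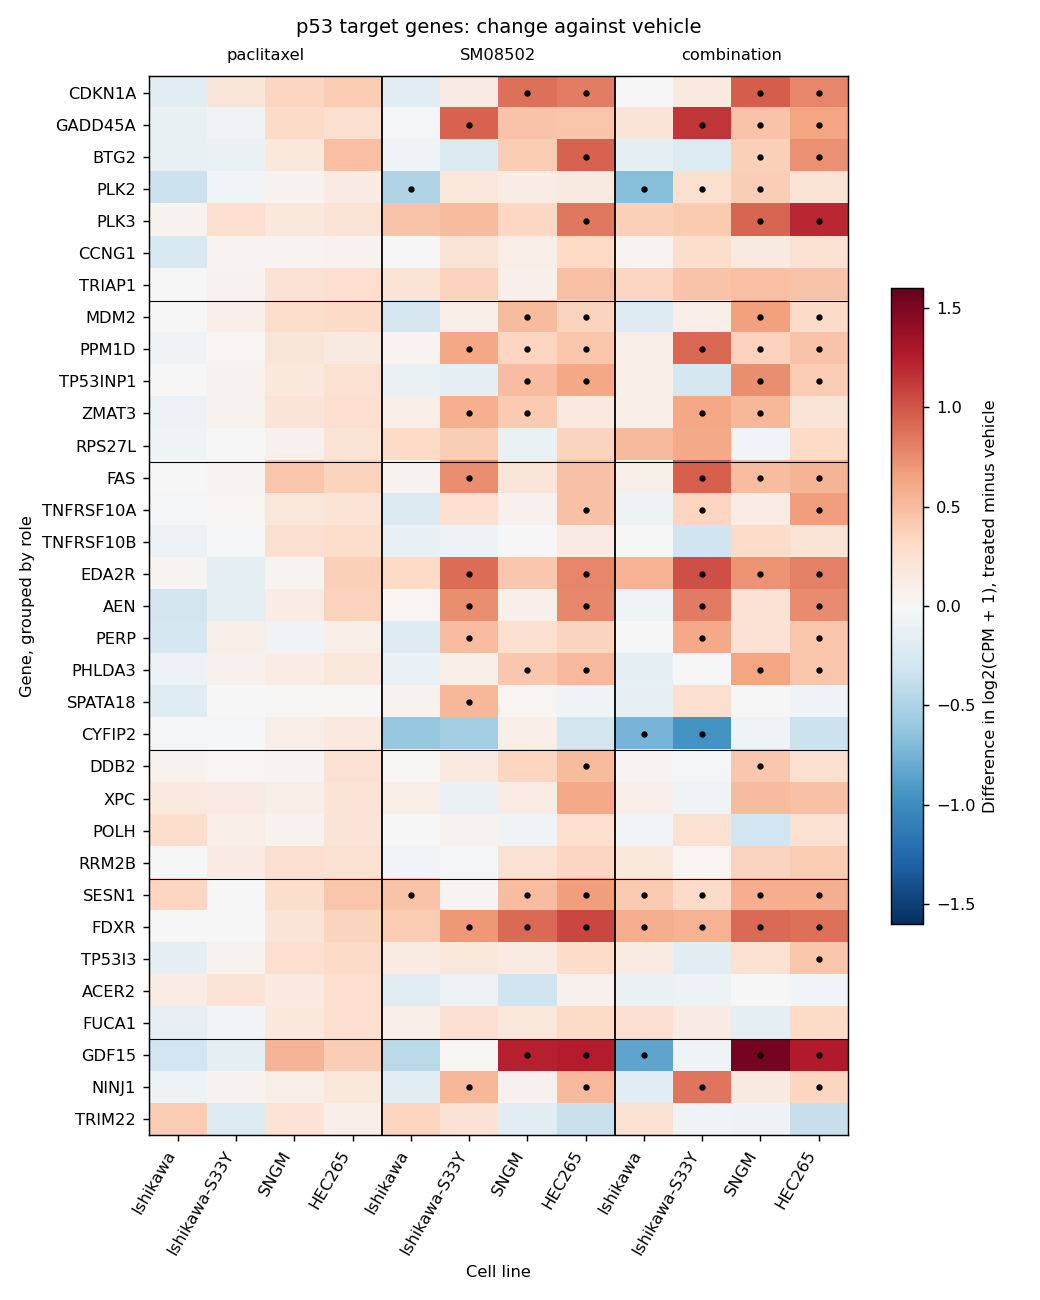
Difference in log2(CPM + 1) between treated and vehicle groups for the 33 genes (rows, grouped by role) in 4 lines under 3 treatments (columns); dots mark an adjusted p under 0.05. No dot falls under paclitaxel, and GDF15 has the deepest red, in SNGM with the combination (1.53).

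Among the 7 genes of cell cycle arrest, CDKN1A (chr6:36676463-36687332) rose in SNGM and HEC265. CDKN1A in SNGM stood at 710.4 and 607 CPM on vehicle, 879 and 794 with paclitaxel, 1202 and 1214 with SM08502, and 1194 and 1390 with the combination. In HEC265 it stood at 429 and 404 CPM on vehicle, 548 and 553 with paclitaxel, 726 and 750.2 with SM08502, and 737 and 692 with the combination. All treated libraries of these 2 lines lay above their vehicle libraries. With SM08502 the log2 change was 0.88 ± 0.13 (SE) in SNGM (limma adjusted p = 0.000129) and 0.82 ± 0.13 in HEC265 (adjusted p = 0.000128), and with the combination 0.97 and 0.78. CDKN1A in Ishikawa stood at 74.4 and 71.9 CPM on vehicle, 65.8 and 64.6 with paclitaxel, 65.4 and 63.2 with SM08502, and 72.7 and 73.1 with the combination. In Ishikawa-S33Y it stood at 17.1 and 14.6 CPM on vehicle, 19.1 and 17.3 with paclitaxel, 18.5 and 16.4 with SM08502, and 21.4 and 14.7 with the combination. In Ishikawa the paclitaxel and SM08502 libraries lay just below vehicle and the combination between the vehicle values, while in Ishikawa-S33Y the SM08502 and combination libraries overlapped vehicle, and no difference in either line was called. The combination gave 0.16 in Ishikawa-S33Y (limma adjusted p = 0.337), where the value of 14.7 CPM came from the shallow library; without that library the change was 0.41 and was called (adjusted p = 0.0128), and without the other combination library it was -0.10.

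GADD45A (chr1:67685201-67688334), which encodes a small stress protein that binds p21 and PCNA, moved most in Ishikawa-S33Y. Its libraries there gave 7.05 and 7.97 CPM on vehicle, 7.56 and 6.71 with paclitaxel, 14.3 and 16.3 with SM08502, and 21.3 and 14.7 with the combination. In Ishikawa they gave 15.8 and 16.7 CPM on vehicle, 17.1 and 12.8 with paclitaxel, 16.7 and 15.1 with SM08502, and 18.7 and 18.9 with the combination. The Ishikawa-S33Y libraries with SM08502 stood near the Ishikawa level and clear of their own vehicle, a log2 change of 0.94 ± 0.16 (limma adjusted p = 0.000132) and 1.14 ± 0.16 with the combination (adjusted p = 7.25e-06). SNGM gave 31.7 and 30.03 CPM on vehicle, 36.9 and 40.2 with paclitaxel, 45.1 and 40.6 with SM08502, and 48.9 and 37.3 with the combination. HEC265 gave 27.4 and 28.2 CPM on vehicle, 36.3 and 30.5 with paclitaxel, 37.7 and 38.7 with SM08502, and 45.2 and 41.99 with the combination. In both lines every treated library exceeded vehicle. The difference passed with the combination (0.46 and 0.63) and not with SM08502 (0.46, limma adjusted p = 0.0777, and 0.45, adjusted p = 0.0597). Compared directly, the combination and SM08502 differed by -0.002 in SNGM and 0.19 in HEC265, neither called. The SNGM combination call was lost with no filter, a pseudocount of 0.1, quantile normalization, a replicate block or a fit to SNGM alone.

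BTG2 (chr1:203305519-203309602), an antiproliferative protein that recruits the deadenylase complex, rose in HEC265. There it gave 46.8 and 43.2 CPM on vehicle, 62.9 and 63.5 with paclitaxel, 86.96 and 88.2 with SM08502, and 78.5 and 72.6 with the combination. In SNGM it gave 53.1 and 53.3 CPM on vehicle, 61.1 and 58.3 with paclitaxel, 70.2 and 71.1 with SM08502, and 64.2 and 75.3 with the combination. Treated libraries were above vehicle in both lines. With SM08502 the log2 change was 0.95 ± 0.13 in HEC265 (limma adjusted p = 2.76e-05) and 0.40 ± 0.13 in SNGM (adjusted p = 0.0532, not called). With the combination it was 0.73 and 0.38, both called. The SNGM combination call was lost with no filter, quantile normalization, limma voom or a fit to SNGM alone. Ishikawa gave 28.4 and 27.9 CPM on vehicle, 29.4 and 22.4 with paclitaxel, 28.4 and 25.5 with SM08502, and 25.3 and 25.01 with the combination for BTG2. Ishikawa-S33Y gave 23.2 and 20.8 CPM on vehicle, 22.03 and 18.7 with paclitaxel, 18.7 and 18.4 with SM08502, and 16.3 and 21.4 with the combination for BTG2. Neither line showed a called change, and the SM08502 libraries of Ishikawa-S33Y lay below vehicle.

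Of the polo-like kinases, PLK3 rose in HEC265 and SNGM and PLK2 fell in Ishikawa. PLK3 (chr1:44800377-44805990) in HEC265 gave 9.97 and 12.5 CPM on vehicle, 13.4 and 12.96 with paclitaxel, 21.6 and 20.1 with SM08502, and 26.1 and 27.9 with the combination. PLK3 in SNGM gave 16.6 and 18.1 CPM on vehicle, 20.5 and 18.6 with paclitaxel, 24.5 and 19.9 with SM08502, and 29.6 and 39.2 with the combination. It rose by 0.84 ± 0.21 with SM08502 and 1.20 ± 0.21 with the combination in HEC265 (limma adjusted p = 0.00961 and 0.000377), and with the combination in SNGM (0.94, adjusted p = 0.00425). PLK3 in Ishikawa gave 3.39 and 3.76 CPM on vehicle, 3.895 and 3.62 with paclitaxel, 5.09 and 5.41 with SM08502, and 5.43 and 4.48 with the combination. PLK3 in Ishikawa-S33Y gave 2.86 and 2.22 CPM on vehicle, 3.35 and 3.15 with paclitaxel, 4.32 and 3.703 with SM08502, and 5.601 and 2.34 with the combination. SM08502 libraries were above vehicle in both without a called change, and the low value with the combination in Ishikawa-S33Y came from the shallow library. PLK2 (chr5:58453982-58460086) was the target that fell in Ishikawa with SM08502, from 298 and 301 CPM to 209 and 220.3, and to 190.5 and 182 with the combination, a log2 change of -0.48 ± 0.09 and -0.68 ± 0.09 (limma adjusted p = 0.00147 and 3.55e-05). With the combination PLK2 rose in Ishikawa-S33Y (0.26) and SNGM (0.39). CCNG1 (cyclin G1) and TRIAP1, an apoptosis inhibitor, were not called in any single line, TRIAP1 changing by 0.08 to 0.49 with SM08502 or the combination across the lines.

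Of the 5 genes that feed back on p53, MDM2 (chr12:68808172-68850686) rose in SNGM and HEC265. MDM2 in SNGM gave 482 and 442 CPM on vehicle, 592 and 532 with paclitaxel, 626 and 692 with SM08502, and 679.6 and 782 with the combination. MDM2 in HEC265 gave 494 and 488 CPM on vehicle, 592 and 625 with paclitaxel, 625 and 637 with SM08502, and 609.5 and 602 with the combination. Treated libraries were all above vehicle, with log2 changes of 0.51 ± 0.10 and 0.36 ± 0.10 for SM08502 (limma adjusted p = 0.00225 and 0.0171) and 0.66 and 0.30 for the combination. The HEC265 calls were lost whenever 1 library of the groups compared was left out. MDM2 in Ishikawa gave 237 and 273 CPM on vehicle, 269.9 and 236 with paclitaxel, 222 and 202 with SM08502, and 224 and 218 with the combination. MDM2 in Ishikawa-S33Y gave 234 and 227 CPM on vehicle, 242 and 248 with paclitaxel, 254 and 242 with SM08502, and 239.5 and 259 with the combination. SM08502 and combination libraries lay below vehicle in Ishikawa and slightly above it in Ishikawa-S33Y, with no called change.

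PPM1D (chr17:60600193-60666280) rose with SM08502 in every line but Ishikawa. Ishikawa-S33Y gave 40.3 and 37.4 CPM on vehicle, 38.8 and 40.3 with paclitaxel, 59.6 and 60.9 with SM08502, and 73.6 and 75.2 with the combination for PPM1D. SNGM gave 47.1 and 40.7 CPM on vehicle, 51.6 and 48.8 with paclitaxel, 54.8 and 56.4 with SM08502, and 58.8 and 54.8 with the combination for PPM1D. HEC265 gave 48.8 and 45.2 CPM on vehicle, 51.1 and 52.9 with paclitaxel, 64.8 and 64.2 with SM08502, and 66.96 and 62.9 with the combination for PPM1D. SM08502 and combination libraries lay above vehicle in all 3 lines, with log2 changes of 0.62 ± 0.08, 0.34 ± 0.08 and 0.45 ± 0.08 for SM08502 (limma adjusted p = 1.63e-05, 0.0138 and 0.000913) and 0.92, 0.37 and 0.46 for the combination. Ishikawa gave 82.8 and 80.5 CPM on vehicle, 81.8 and 75.2 with paclitaxel, 86.4 and 82.7 with SM08502, and 87.5 and 88 with the combination, a range in which SM08502 overlapped vehicle. TP53INP1, which promotes p53 phosphorylation and autophagy, rose in SNGM (0.49 with SM08502, 0.75 with the combination) and HEC265 (0.62 and 0.41) and was not called in the Ishikawa lines. ZMAT3, an RNA-binding zinc finger protein, rose in Ishikawa-S33Y (0.57 and 0.62) and SNGM (0.42 and 0.53). Both SNGM calls of ZMAT3 were lost in a fit to SNGM alone. The SM08502 call there was also lost with no filter, a pseudocount of 0.1, median re-centring or a replicate block. RPS27L, a ribosomal protein paralogue, was not called in any line.

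The 9 genes of death receptors and apoptosis held 5 of the 10 called higher with SM08502 in Ishikawa-S33Y, SPATA18 among the 5, where 18.5% of all genes were called higher. FAS (chr10:88964050-89017059), the CD95 death receptor, gave 8.48 and 8.13 CPM on vehicle, 8.68 and 8.46 with paclitaxel, 14.1 and 14.96 with SM08502, and 13.7 and 21.4 with the combination in Ishikawa-S33Y. Ishikawa gave 19.6 and 21.5 CPM on vehicle, 18.8 and 22.4 with paclitaxel, 18.4 and 24.5 with SM08502, and 21.2 and 22.6 with the combination for FAS. The SM08502 and combination values of Ishikawa-S33Y moved clear of its vehicle values toward those of Ishikawa, where groups overlapped, by 0.74 ± 0.16 and 0.96 ± 0.16 on the log2 scale (limma adjusted p = 0.00153 and 6.54e-05). FAS in SNGM gave 121 and 101 CPM on vehicle, 166 and 136 with paclitaxel, 115 and 140.3 with SM08502, and 148 and 166 with the combination. FAS in HEC265 gave 75.2 and 71.5 CPM on vehicle, 95.3 and 93.1 with paclitaxel, 104 and 100.4 with SM08502, and 108 and 107 with the combination. SM08502 overlapped vehicle in SNGM and was above it in HEC265, where it was not called (0.47, limma adjusted p = 0.0528). The combination was called in both (0.50 and 0.55). Its SNGM call was lost with no filter, median re-centring, quantile normalization or a fit to SNGM alone, and its HEC265 call in some alternatives. TNFRSF10A, a TRAIL receptor, rose in HEC265 (0.46 and 0.67) and with the combination in Ishikawa-S33Y (0.34), and its homologue TNFRSF10B was not called.

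EDA2R (chrX:66595637-66639269) was low in the Ishikawa lines. Ishikawa-S33Y gave 1.13 and 1.34 CPM on vehicle, 0.863 and 1.19 with paclitaxel, 3.67 and 2.67 with SM08502, and 1.95 and 6.02 with the combination for EDA2R. Ishikawa gave 1.11 and 0.844 CPM on vehicle, 1.23 and 0.836 with paclitaxel, 1.45 and 1.46 with SM08502, and 2.02 and 1.79 with the combination for EDA2R. Both treatments with SM08502 lay above vehicle in both lines, and Ishikawa-S33Y passed, with log2 changes of 0.89 ± 0.23 and 1.03 ± 0.23 (limma adjusted p = 0.00698 and 0.00138). The higher combination value there came from the shallow library, where 3 reads are worth 1.00 CPM, and without it the combination change was 0.40 and was not called (adjusted p = 0.0611), though it was called when the shallow library of SNGM was left out as well (0.0458); the SM08502 call was lost without vehicle replicate 1 or SM08502 replicate 1. SNGM gave 25.8 and 23.8 CPM on vehicle, 25.97 and 25.3 with paclitaxel, 32.8 and 34.9 with SM08502, and 41.5 and 41.7 with the combination for EDA2R. HEC265 gave 24.2 and 25.5 CPM on vehicle, 33.3 and 31.8 with paclitaxel, 44.8 and 42.4 with SM08502, and 44.4 and 44.2 with the combination for EDA2R. Values with SM08502 were above vehicle in both lines, called with SM08502 in HEC265 (0.79) and with the combination in both (0.72 and 0.81). The SM08502 call in HEC265 was lost with no filter, a pseudocount of 0.1, median re-centring or quantile normalization. With the combination, the SNGM call was lost with no filter, a pseudocount of 0.1 or quantile normalization, and the HEC265 call in some alternatives.

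AEN, an apoptosis-enhancing nuclease, rose in Ishikawa-S33Y from 17.1 and 16.98 CPM to 27.2 and 31.6 with SM08502 and 30.2 and 32.1 with the combination. In HEC265 AEN rose from 42.2 and 41.5 CPM to 71.9 and 71.8 with SM08502 and 69.2 and 73.8 with the combination. These were log2 changes of 0.75 ± 0.10 and 0.76 ± 0.10 with SM08502 (limma adjusted p = 9.78e-06 and 1.76e-05), whereas SNGM changed by 0.08 and Ishikawa by 0.03, neither called. PERP, a tetraspan membrane protein of desmosomes and apoptosis, rose in Ishikawa-S33Y (0.50 and 0.61) and with the combination in HEC265 (0.45). PHLDA3, an inhibitor of AKT signalling, rose with both treatments in SNGM (0.44 and 0.64) and HEC265 (0.51 and 0.44). Its SM08502 call in SNGM was lost with no filter, a pseudocount of 0.1, a replicate block or a fit to SNGM alone. SPATA18, which acts in mitochondrial quality control, reached 1.05 and 1.23 CPM with SM08502 in Ishikawa-S33Y from 0.542 and 0.419 on vehicle (0.53) and had at most 0.0802 CPM in SNGM and HEC265.

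CYFIP2 (chr5:157266123-157395594), a subunit of the WAVE actin-regulating complex, fell with the combination in both Ishikawa lines. Ishikawa gave 45.2 and 51.1 CPM on vehicle, 63.6 and 35.3 with paclitaxel, 38.7 and 24.99 with SM08502, and 29.3 and 27.2 with the combination for CYFIP2. Ishikawa-S33Y gave 74.2 and 76.7 CPM on vehicle, 73.5 and 74.2 with paclitaxel, 54.8 and 48.3 with SM08502, and 47.6 and 31.1 with the combination for CYFIP2. SM08502 and combination libraries lay below vehicle in both lines, and the combination passed, with log2 changes of -0.75 ± 0.21 and -0.95 ± 0.21 (limma adjusted p = 0.0141 and 0.00102), while SM08502 alone gave -0.61 and -0.54 (adjusted p = 0.0529 and 0.0566). The Ishikawa call was lost without vehicle replicate 2 or without either combination replicate. SNGM gave 203 and 209 CPM on vehicle, 209 and 231 with paclitaxel, 222 and 222 with SM08502, and 226 and 173 with the combination for CYFIP2. HEC265 gave 139 and 138 CPM on vehicle, 156 and 154 with paclitaxel, 110.1 and 116 with SM08502, and 110.4 and 107 with the combination for CYFIP2. No change was called in these 2 lines, although the SM08502 and combination libraries of HEC265 lay below its vehicle libraries.

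Among the 4 genes of DNA repair and nucleotide supply, DDB2, the damage sensor of nucleotide excision repair, rose with SM08502 in HEC265 (0.51) and with the combination in SNGM (0.43). XPC, its partner in damage recognition, POLH, a translesion polymerase, and RRM2B, a ribonucleotide reductase subunit, were not called in any line, with changes between -0.31 and 0.60 for SM08502 and the combination.

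The 5 redox and metabolic genes included FDXR and SESN1, the targets called in the most lines. FDXR (chr17:74862497-74872994), ferredoxin reductase of mitochondria, gave 15.7 and 16.8 CPM on vehicle, 20.7 and 21.4 with paclitaxel, 34.5 and 35.6 with SM08502, and 33.2 and 28.5 with the combination in HEC265. SNGM gave 24.5 and 18.7 CPM on vehicle, 26.9 and 22.9 with paclitaxel, 41.6 and 40.5 with SM08502, and 38.8 and 42.9 with the combination for FDXR. In both lines the SM08502 and combination libraries were all above vehicle, with log2 changes of 1.07 ± 0.14 and 0.91 ± 0.14 for SM08502 (limma adjusted p = 2.69e-05 and 0.000272) and 0.88 and 0.90 for the combination. Ishikawa-S33Y gave 5.96 and 6.21 CPM on vehicle, 5.74 and 6.45 with paclitaxel, 9.39 and 11.7 with SM08502, and 8.32 and 10.7 with the combination for FDXR. Ishikawa gave 7.65 and 6.68 CPM on vehicle, 7.34 and 6.97 with paclitaxel, 9.25 and 10.4 with SM08502, and 11.1 and 11.3 with the combination for FDXR. SM08502 and combination values exceeded vehicle in both, and Ishikawa-S33Y passed with each (0.69 and 0.56), Ishikawa with the combination (0.59) but not SM08502 (0.41, adjusted p = 0.0534). SESN1, sestrin 1, which restrains mTORC1, rose with SM08502 in Ishikawa (0.46), SNGM (0.50) and HEC265 (0.67), but in Ishikawa the call was lost without either vehicle replicate or without SM08502 replicate 2. Both FDXR and SESN1 were called higher in all 4 lines with the combination, as no other target was; SESN1 lost that call in Ishikawa whenever 1 of the 4 libraries compared was left out, and in Ishikawa-S33Y without vehicle replicate 2 or either combination replicate, and FDXR lost it in Ishikawa without vehicle replicate 2 and in Ishikawa-S33Y without the shallow library alone (adjusted p = 0.0645), but not without both shallow libraries (0.0494). TP53I3, a quinone oxidoreductase, was called with the combination in HEC265 (0.44), and the ceramidase ACER2 and the fucosidase FUCA1 were not called in any line.

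GDF15 (chr19:18386158-18389176), a secreted stress cytokine, had the largest rise among the 33 on the log2(CPM + 1) scale. GDF15 in SNGM gave 234 and 218 CPM on vehicle, 317 and 339.7 with paclitaxel, 569 and 507 with SM08502, and 738 and 581 with the combination. GDF15 in HEC265 gave 46.3 and 46.95 CPM on vehicle, 62.3 and 61.1 with paclitaxel, 111 and 114 with SM08502, and 118 and 109.8 with the combination. Treated libraries were above vehicle in both lines, with log2 changes of 1.25 ± 0.15 and 1.25 ± 0.15 for SM08502 (limma adjusted p = 3.09e-05 and 1.41e-05) and 1.53 ± 0.15 and 1.27 ± 0.15 for the combination. GDF15 in Ishikawa gave 10.3 and 10.1 CPM on vehicle, 9.998 and 6.48 with paclitaxel, 8.27 and 6.45 with SM08502, and 4.64 and 5.897 with the combination. GDF15 in Ishikawa-S33Y gave 7.88 and 6.46 CPM on vehicle, 6.496 and 6.24 with paclitaxel, 6.88 and 7.55 with SM08502, and 6.22 and 7.36 with the combination. In Ishikawa all treated libraries lay below vehicle and GDF15 fell with the combination, a log2 change of -0.85 ± 0.15 (limma adjusted p = 0.000601), and in Ishikawa-S33Y every treatment overlapped vehicle. NINJ1 (chr9:93121496-93134251), ninjurin 1, which acts in membrane rupture of dying cells, gave 17.9 and 14.04 CPM on vehicle, 16.2 and 16.9 with paclitaxel, 23.6 and 23.2 with SM08502, and 29.8 and 29.4 with the combination in Ishikawa-S33Y. HEC265 gave 58.6 and 56.9 CPM on vehicle, 66.3 and 65.1 with paclitaxel, 80.98 and 85.1 with SM08502, and 74.5 and 72.3 with the combination for NINJ1. NINJ1 rose clear of vehicle in both, by 0.53 ± 0.10 and 0.52 ± 0.10 with SM08502 (limma adjusted p = 0.00047 and 0.00132) and by 0.86 and 0.34 with the combination. SNGM gave 40.5 and 40.3 CPM on vehicle, 42.7 and 43.8 with paclitaxel, 43.4 and 41.5 with SM08502, and 46.4 and 42.9 with the combination for NINJ1. Ishikawa gave 12.5 and 13.1 CPM on vehicle, 12.4 and 11.7 with paclitaxel, 12.3 and 10.2 with SM08502, and 11.1 and 11.1 with the combination for NINJ1. Neither line had a called change, and the SM08502 and combination libraries of Ishikawa lay below vehicle. TRIM22, an interferon-induced ubiquitin ligase, was not called in any line.

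**Figure D4:**
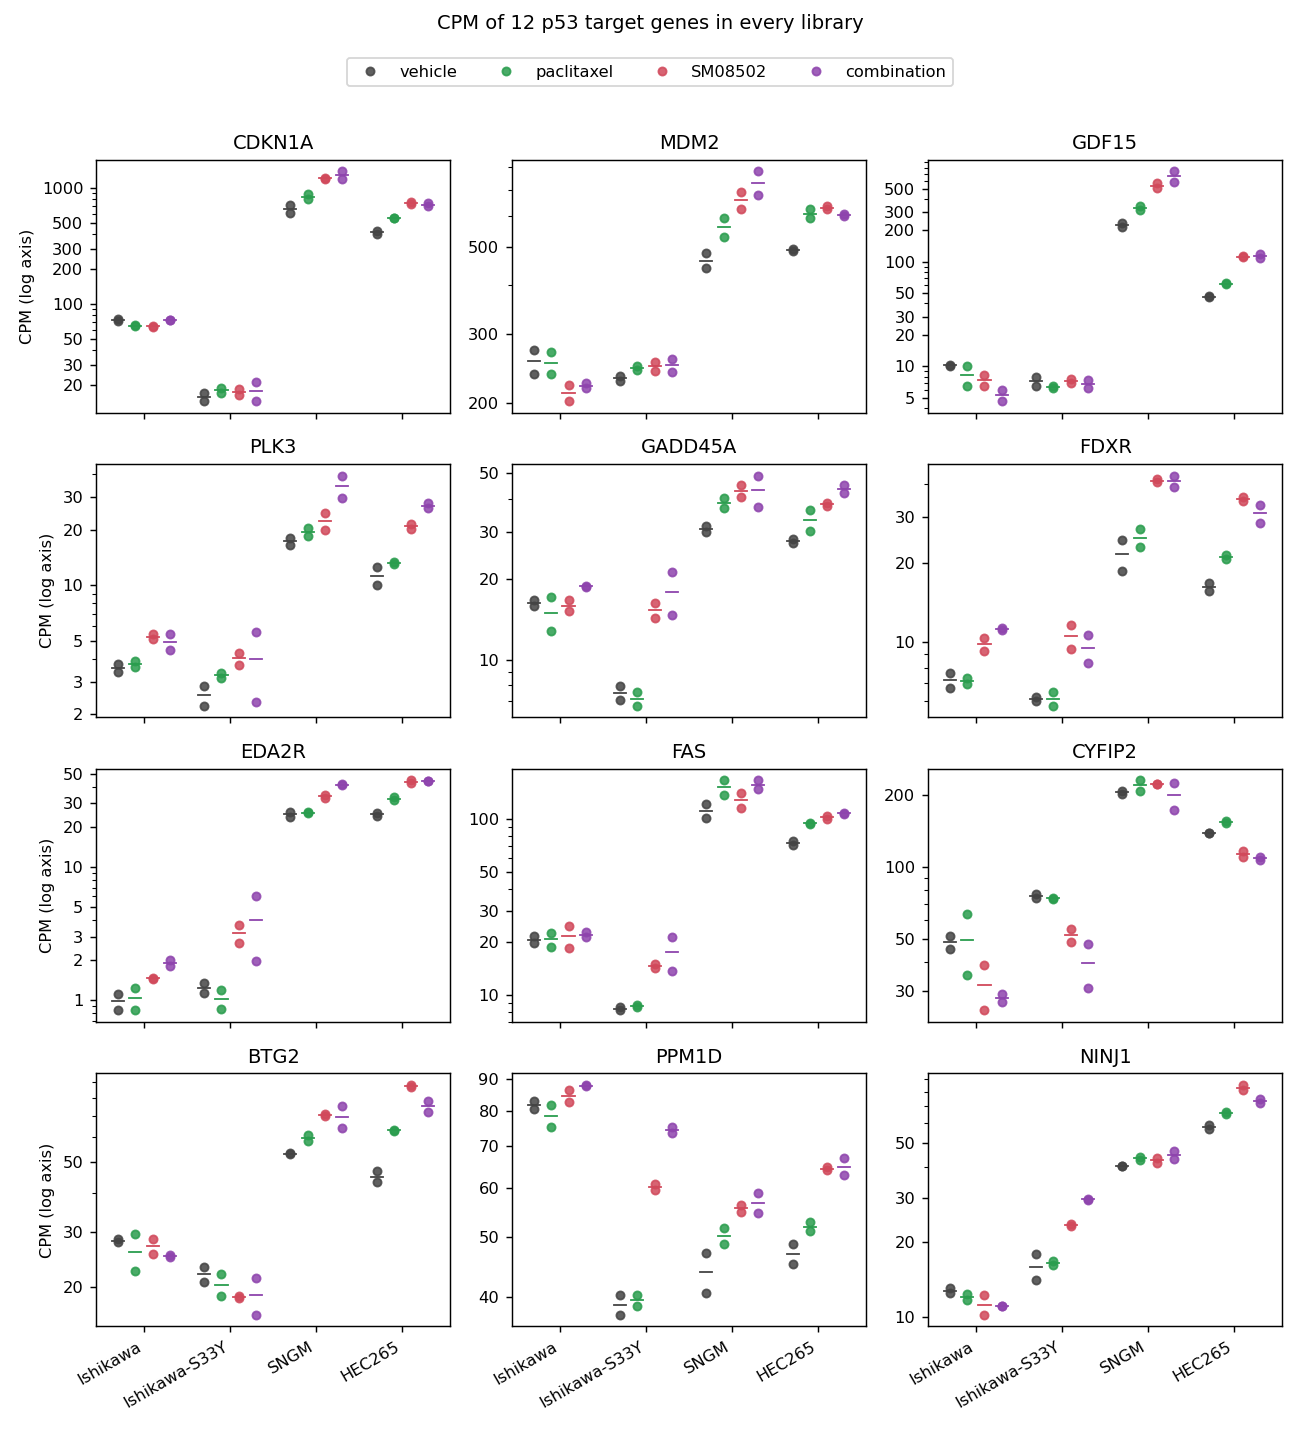
CPM (log axis) of 12 p53 target genes in every library, by line and treatment; points are libraries and short bars their group means. CDKN1A, MDM2 and GDF15 rise with SM08502 in SNGM and HEC265 and not in the Ishikawa lines, and GADD45A, FAS and NINJ1 are called higher in Ishikawa-S33Y and not in Ishikawa.

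Of the 88 called changes of single targets with SM08502 or the combination, 38 stayed called in every alternative run, each library left out in turn included. With SM08502 these were AEN, FAS, FDXR, GADD45A, NINJ1, PPM1D and ZMAT3 in Ishikawa-S33Y, GDF15 in SNGM, and AEN, BTG2, CDKN1A, FDXR, GDF15, NINJ1, PPM1D, SESN1 and TP53INP1 in HEC265. With the combination they were PLK2 in Ishikawa, AEN, CYFIP2, FAS, GADD45A, NINJ1, PERP, PPM1D and ZMAT3 in Ishikawa-S33Y, CDKN1A, FDXR and GDF15 in SNGM, and AEN, BTG2, CDKN1A, FDXR, GDF15, PLK3, PPM1D, SESN1 and TNFRSF10A in HEC265. The other 50 were lost in at least 1 alternative.

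Paclitaxel was compared with vehicle in the same way, and no target was called in any line by limma. Of all tested genes, Ishikawa had 0.0118% called, Ishikawa-S33Y 0%, SNGM 0.0176% and HEC265 0.00588%. At an unadjusted p under 0.05 there were 3, 0, 6 and 9 of the 33 in the same order, beside 7.37%, 0.717%, 1.76% and 0.929% of all genes. These were PLK2 and AEN (lower) and SESN1 (higher) in Ishikawa; CDKN1A, MDM2, PPM1D, FAS, SESN1 and GDF15 in SNGM, all higher; and CDKN1A, BTG2, MDM2, FAS, AEN, SESN1, FDXR, TP53I3 and GDF15 in HEC265, all higher. The log2 changes of those in SNGM and HEC265 lay between 0.19 and 0.54, with adjusted p of 1 for each, and in HEC265 they were 0.48 for BTG2, 0.44 for SESN1, 0.40 for CDKN1A and 0.40 for GDF15. The change was above 0 for 33 of 33 targets in HEC265, 32 in SNGM, 21 in Ishikawa-S33Y and 11 in Ishikawa, where 58.8%, 52.3%, 55% and 48% of all genes were above 0. The median of the 33 was 0.25, 0.16, 0.03 and -0.06 in that order, beside 0.03, 0.01, 0.01 and -0.01 for all genes. The count in SNGM was 26 without vehicle replicate 2, and that in Ishikawa was 19 without paclitaxel replicate 2.

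Whether a response differed between lines was tested directly, with a moderated F test over the 4 lines. For SM08502 10 of the 33 differed (all tested genes, 12.4%), for the combination 13 (27.1%) and for paclitaxel none (0%). The 10 were AEN, BTG2, CDKN1A, GADD45A, GDF15, MDM2, NINJ1, PLK2, PPM1D and TP53INP1, and the combination added FAS, PHLDA3 and TNFRSF10A. The share of targets was above that of all genes for SM08502 and for the combination. The combination count was 22 without the first combination replicate of SNGM, which leaves that group with the shallow library alone.

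The targets that differed fell into patterns by line, which the pairwise tests describe. GDF15 responded to SM08502 more in HEC265 than in Ishikawa by 1.69 ± 0.22 (limma adjusted p = 0.000237) and more in SNGM than in Ishikawa-S33Y by 1.23 ± 0.22 (adjusted p = 0.00156). For CDKN1A the same differences were 1.01 ± 0.18 (adjusted p = 0.00316) and 0.75 ± 0.18 (adjusted p = 0.0109), and for SNGM against HEC265 neither gene was called. AEN and NINJ1 responded more in Ishikawa-S33Y than in SNGM: SNGM minus Ishikawa-S33Y was -0.66 ± 0.14 for AEN (limma adjusted p = 0.00401) and -0.46 ± 0.14 for NINJ1 (adjusted p = 0.0427). BTG2 responded more in HEC265 than in Ishikawa-S33Y, by 1.18 ± 0.18 (limma adjusted p = 0.00049).

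Ishikawa-S33Y and Ishikawa were compared on the same terms, since they are labelled as the CTNNB1-mutated and CTNNB1-wildtype Ishikawa lines. With SM08502 the response in Ishikawa-S33Y exceeded that in Ishikawa for GADD45A (0.97 ± 0.22, limma adjusted p = 0.0234), AEN (0.72 ± 0.14, 0.00724), NINJ1 (0.71 ± 0.14, 0.0109), PLK2 (0.66 ± 0.13, 0.0101) and PPM1D (0.57 ± 0.12, 0.0139), 5 of 33 beside 1.83% of all genes called higher in that difference. Of these, PLK2 was called lower in Ishikawa and was not called with SM08502 in Ishikawa-S33Y. CDKN1A differed by 0.32 ± 0.18 (limma adjusted p = 0.38), MDM2 by 0.37 ± 0.14 (0.173) and GDF15 by 0.45 ± 0.22 (0.302), none of them called. With the combination 8 were called (6.09%): the same 5, FAS, PERP, and GDF15, whose response differed by 0.78 ± 0.22 (limma adjusted p = 0.0263) after its fall in Ishikawa.

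**Figure D5:**
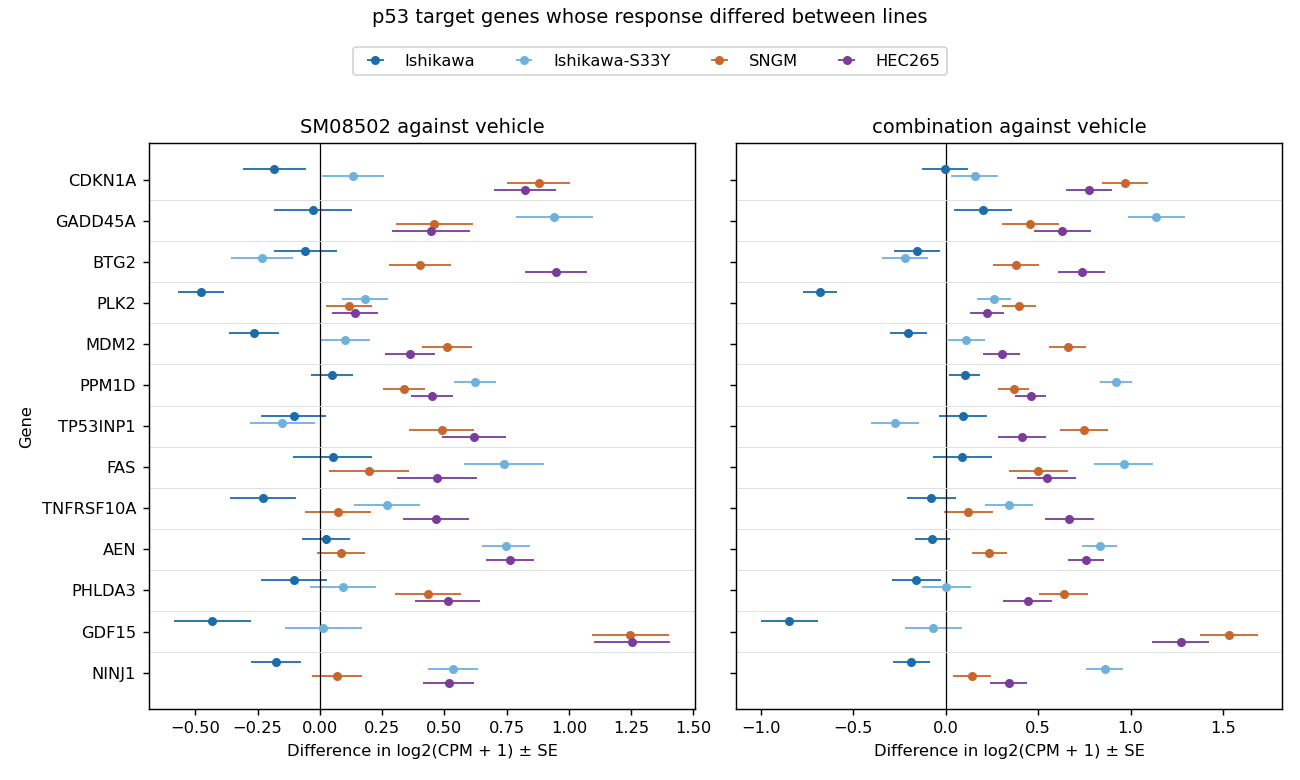
Log2 difference from vehicle (points, ± SE) in each line for the 13 genes whose response differed between lines by the F test in either comparison. GDF15 and CDKN1A lie to the right in SNGM and HEC265 and near or left of 0 in the Ishikawa lines, whereas GADD45A, PPM1D and NINJ1 lie farthest right in Ishikawa-S33Y or there and in HEC265.

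Some pairs of lines shared part of their calls, among the targets as among all tested genes. With SM08502 8 targets rose in both SNGM and HEC265, 88.9% of the 9 in SNGM and 53.3% of the 15 in HEC265: CDKN1A, FDXR, GDF15, MDM2, PHLDA3, PPM1D, SESN1 and TP53INP1. In SNGM only GDF15 of these 8 stayed called in every alternative run, and in HEC265 all but MDM2 and PHLDA3 did. Over all tested genes these lines shared 331 calls (51.2% of those in SNGM and 21% of those in HEC265). Ishikawa-S33Y shared 3 with SNGM (30% of its 10 and 33.3% of the 9 in SNGM), where all genes gave 12% and 58.3%, and 5 with HEC265 (50% and 33.3%), where all genes gave 29.5% and 58.8%. No target rose in all 4 lines with SM08502, and 3 rose in 3 lines: FDXR, PPM1D and SESN1. The mean over the 4 lines put 21 targets higher and 1, CYFIP2, lower with SM08502 (all genes higher, 22.6%, and lower, 15.8%), and 22 higher and 1 lower with the combination (29% and 20.1%).

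Other genes of the pathway were read from lists of p53 regulators (21 genes), further p53 targets (31) and genes repressed through p21 and the DREAM complex (16). With paclitaxel none of the 3 lists had a called gene in any line. Of the regulators, MDM4, which binds and restrains p53, rose with SM08502 in Ishikawa-S33Y, from 35.9 ± 1.21 to 62.7 ± 0.763 CPM (log2 0.79 ± 0.16, limma adjusted p = 0.000907), and in Ishikawa (0.51, adjusted p = 0.033), and changed by -0.05 and 0.02 in SNGM and HEC265. TP63, a p53 family member, fell in Ishikawa from 17.3 ± 2.77 to 10.6 ± 1.51 CPM and in Ishikawa-S33Y from 2.35 ± 0.181 to 1.25 ± 0.194. With SM08502 the regulators called higher and lower were 2 and 1 in HEC265, 1 and 0 in SNGM, 4 and 2 in Ishikawa-S33Y and 3 and 2 in Ishikawa. Of all genes 9.27% and 5.39% were called higher and lower in HEC265, 3.8% and 4.06% in SNGM, 18.5% and 10.6% in Ishikawa-S33Y and 6.5% and 8.68% in Ishikawa, so that the regulators' shares in Ishikawa-S33Y (19% and 9.52%) were near those of all genes. The further targets gave 7 and 0, 2 and 1, 6 and 5, and 2 and 3 in the same order, among them KITLG, the ligand of KIT, which rose in Ishikawa-S33Y (1.16), and TGFA, a ligand of the EGF receptor, which fell in Ishikawa (-0.93) and Ishikawa-S33Y (-0.91). Their shares were 22.6% higher in HEC265, and near those of all genes for higher calls in Ishikawa-S33Y (19.4%) and in Ishikawa (6.45%).

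The genes repressed through p21 and DREAM moved in opposite directions in 2 lines. With SM08502 8 of the 16 fell and none rose in SNGM (4.06% of all genes called lower), and 7 rose and none fell in Ishikawa-S33Y (18.5% called higher). In HEC265 2 fell (5.39%) and in Ishikawa 1 (8.68%). The mitotic kinase PLK1 changed with SM08502 from 124 ± 16.5 to 66.8 ± 14.2 CPM in SNGM (log2 -0.89 ± 0.15, limma adjusted p = 0.000617) and from 102 ± 5.78 to 147 ± 0.817 in Ishikawa-S33Y (0.52 ± 0.15, adjusted p = 0.0121). Cyclin B1 (CCNB1) fell in SNGM (-1.03) and HEC265 (-0.48) and rose in Ishikawa-S33Y (0.53). With the combination 11 fell in SNGM (7.54% of all genes called lower), 2 fell in HEC265 (7.16%), 8 rose in Ishikawa-S33Y (24% called higher) and 1 fell in Ishikawa (11.2% called lower).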

How the data were processed

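RNA of 32 cell line samples, 2 in each of 16 groups of line and treatment, was depleted of ribosomal RNA and sequenced, per the labels' protocols. The authors deposited 1 table of log10(CPM + 1), with CPM summing to 1e+06 in each sample. The submitters' processing notes name bcl2fastq, kallisto, STAR and GRCh38, without roles; the counter, annotation and strand setting are not given in the sources used here. Every deposited value came out as a whole read within a tolerance of 0.01, which gave the depth. Values were converted to log2(CPM + 1), a scale that understates changes of low genes, and the 17011 of 35238 genes that exceeded 1 CPM in 2 or more samples were fitted with limma 3.58.1 (R 4.3.3), with 16 group means, an intensity trend and Benjamini-Hochberg adjustment over all genes in each contrast. All groups shared 1 estimate of spread, on 16 residual degrees of freedom. Errors are SE of log2 changes or SD over 2 samples, and with 2 samples a group an exact test of single values could not pass. The table was log10, where log2 had been assumed in the plan. The alternatives were no filter, a pseudocount of 0.1, median re-centring, quantile normalization, a fit to the line alone, limma voom on the recovered reads, the replicate number as a block, leaving out each replicate, and, added after seeing the data, leaving out the 2 shallow libraries and a covariate of long-transcript against ribosomal protein genes. The fit was tested on simulated data. Values in every sample are given for CDKN1A, MDM2 and the called targets with the largest changes, up to 12; of the other lists, MDM4 and the 2 genes with the largest called changes are named, and 1 other gene of that rule is not reported here. The members and lists were chosen with earlier results of these data known. Figures were drawn with matplotlib 3.10.9.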

Additional observations from a re-analysis of the deposited data

Results flagged for a closer look

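The response of 10 targets to SM08502 differed between the 4 lines by limma's F test over all tested genes. Adjusted p was 4.39e-05 for GDF15, 0.000743 for BTG2, 0.000744 for AEN, 0.000804 for CDKN1A, 0.00376 for NINJ1, 0.00429 for MDM2, 0.00434 for PLK2, 0.00949 for TP53INP1, 0.0147 for PPM1D and 0.0306 for GADD45A. GADD45A and PPM1D lost this call in at least 1 alternative, and the other 8 kept it in all that were run.

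The response of 13 targets to the combination differed between the lines by the same test. Adjusted p was 8.24e-07 for GDF15, 2.15e-05 for PLK2, 0.000135 for AEN, 0.000177 for NINJ1, 0.000351 for PPM1D, 0.000731 for CDKN1A, 0.000999 for BTG2, 0.00107 for MDM2, 0.00197 for TP53INP1, 0.00852 for PHLDA3, 0.0172 for GADD45A, 0.0239 for TNFRSF10A and 0.0391 for FAS. FAS, GADD45A and TNFRSF10A lost this call in at least 1 alternative, and the other 10 kept it in all that were run. Both tests use the same vehicle libraries.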

How the results depend on the processing

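The counts of called targets changed when each line was fitted alone, which leaves less information on the spread: with SM08502 they were 0 in Ishikawa, 1 in SNGM and 28 in HEC265 (from 2, 9 and 15), and with the combination 1, 4 and 31 (from 5, 16 and 18). For SM08502 in Ishikawa, median re-centring gave 5 and quantile normalization 4. Over all tested genes these settings called 1518 higher and 1329 lower, and 1521 and 1644, beside 1105 and 1477 in the main fit. With the length covariate, Ishikawa had 1 target called with paclitaxel and 6 with SM08502. Over all tested genes the covariate called 17 higher and 83 lower there with paclitaxel, and 1818 and 2325 with SM08502. With it 1, 16 and 20 targets differed between lines for paclitaxel, SM08502 and the combination (from 0, 10 and 13). The share of all genes under the covariate is not given for these F tests, and the cause was not tested. Same-numbered samples deviated together in some pairs of groups and in opposite directions in others (r from -0.58 to 0.84 over 9630 genes). They were therefore not taken as pairs. A replicate block gave 4 targets called with SM08502 in Ishikawa, where it called 1115 of all tested genes higher and 1531 lower.

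Leaving out 1 replicate gave these ranges in Ishikawa, Ishikawa-S33Y, SNGM and HEC265: 0 to 3, 0 to 0, 0 to 0 and 0 to 0 for paclitaxel, 1 to 6, 9 to 9, 4 to 7 and 9 to 11 for SM08502, and 2 to 4, 10 to 14, 7 to 20 and 9 to 11 for the combination. In Ishikawa the 3 came without paclitaxel replicate 1 and the 6 without SM08502 replicate 1. The F test gave 0 to 0, 8 to 12 and 11 to 22. Means over the lines gave 0 to 0, 19 to 22 and 21 to 25. Without both shallow libraries the combination counts were 14 in Ishikawa-S33Y and 11 in SNGM.

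Some changes not called turned sign. MDM2 with paclitaxel in Ishikawa was 0.083 with quantile normalization and -0.11 to 0.089 without 1 replicate. CDKN1A with the combination in Ishikawa was 0.054 with re-centring, 0.00 with quantile normalization and -0.029 to 0.018 without 1 replicate, and in Ishikawa-S33Y -0.10 to 0.41, the 0.41 being called and coming without the shallow library. Re-centring moved the median of all genes by over 0.1 only for the combination in HEC265, by -0.11. Depth limits low genes in the shallow libraries, where 3 reads are 1.00 CPM (Ishikawa-S33Y) and 1.87 CPM (SNGM).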
